A study of Mus musculus with 13 samples.

Results

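The genes described here are 34 mouse genes of fatty acid uptake and oxidation, taken by symbol among 55471 in the table. The rule uses gene names and no measured value, although the list was drawn up with earlier results of these data known. All 34 were found by Ensembl gene ID, and all 34 were among the 15000 genes that had enough reads to be tested. RNA-seq libraries were strand-specific and made from poly(A) RNA of whole mouse hearts. WT control is 5 libraries of untreated wild-type hearts. R502W control is 4 libraries of untreated hearts from mice that carry R502W, an amino acid change in cMyBP-C (cardiac myosin-binding protein C), which sits on the thick filament and is the product of Mybpc3. R502W mavacamten is 4 libraries from mice of that R502W genotype that drank water with mavacamten, a small-molecule inhibitor of cardiac myosin, at 2.5 mg/kg/day for 21 weeks. The series is about hypertrophic cardiomyopathy, in which the heart muscle thickens. The design text gives an age of 24 weeks, whereas the extraction protocol names hearts of 3 and 18 weeks, so the libraries' own ages are unsettled. The zygosity of R502W, the strain, the feeding state and the hour of collection are likewise not given in the sources used here.

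Long-chain fatty acids are the main fuel of the heart. They are freed from blood lipoproteins, carried into the muscle cell, bound to coenzyme A, and taken into mitochondria as carnitine esters. There the beta-oxidation spiral shortens the chain step by step, and the electrons it releases pass through electron transfer flavoprotein to the respiratory chain. Many genes of this path are known targets of the nuclear receptor PPARα and its partners, and in the heart they respond to fasting, to workload and to the time of day.

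Upstream sequences are shown for some of the genes discussed below, which did not move alike. The choice does not cover all called genes: Cpt2, Acaa2 and Eci2, called below, are not shown, and Acot2, not called, is. Each is the 250 bases before a RefSeq start in GRCm38.p6, written 5′ to 3′ on the gene's strand in lower case. Capitals mark matches, on either strand, to 3 short motifs. These are the nuclear receptor hexamer AGGTCA, the E-box CACGTG bound by CLOCK and BMAL1, and the D-box TTANGTAA bound by DBP and NFIL3. The fatty acid transporter Slc27a1 has 3 such windows, and the one with the most matches, at chr8:71570344-71570593 is shown, with the E-box 202 bases and the D-box 100 bases before the start. The mitochondrial carrier Ucp3 (window chr7:100472741-100472990, plus strand) has 2 hexamers, 149 and 44 bases before its start. The carnitine transferase Cpt1a (window chr19:3323051-3323300, plus strand) has 1 hexamer 94 bases before its start. The acyl-CoA thioesterases Acot1 (window chr12:84009252-84009501) and Acot2 (window chr12:83987611-83987860), neighbours on the plus strand of chromosome 12, had no match.
Slc27a1: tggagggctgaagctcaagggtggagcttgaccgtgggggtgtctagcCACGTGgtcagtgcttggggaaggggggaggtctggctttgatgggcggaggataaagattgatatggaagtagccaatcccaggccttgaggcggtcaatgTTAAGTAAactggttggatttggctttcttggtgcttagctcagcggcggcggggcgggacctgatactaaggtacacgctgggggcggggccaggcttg
Ucp3: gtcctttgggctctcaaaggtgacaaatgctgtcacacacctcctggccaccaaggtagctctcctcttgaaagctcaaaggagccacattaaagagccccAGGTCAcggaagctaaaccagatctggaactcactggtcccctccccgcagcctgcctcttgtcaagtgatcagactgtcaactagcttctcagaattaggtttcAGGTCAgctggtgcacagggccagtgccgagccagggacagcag
Cpt1a: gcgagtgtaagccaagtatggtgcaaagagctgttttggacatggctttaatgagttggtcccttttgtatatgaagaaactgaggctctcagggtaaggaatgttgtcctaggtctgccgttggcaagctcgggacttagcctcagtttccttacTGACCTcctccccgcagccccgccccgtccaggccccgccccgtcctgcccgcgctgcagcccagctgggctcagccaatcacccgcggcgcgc
Acot1: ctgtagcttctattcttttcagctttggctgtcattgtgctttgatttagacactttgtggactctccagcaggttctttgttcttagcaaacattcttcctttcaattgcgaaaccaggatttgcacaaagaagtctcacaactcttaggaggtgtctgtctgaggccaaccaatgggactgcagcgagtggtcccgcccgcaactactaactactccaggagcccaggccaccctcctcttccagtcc
Acot2: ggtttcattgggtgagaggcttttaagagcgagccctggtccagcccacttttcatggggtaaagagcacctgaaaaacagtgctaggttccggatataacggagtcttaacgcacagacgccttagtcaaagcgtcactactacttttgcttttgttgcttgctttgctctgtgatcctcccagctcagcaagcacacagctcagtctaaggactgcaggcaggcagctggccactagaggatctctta

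Windows were found for 28 of the 34 genes, 32 windows in all, and were set beside all 32851 windows of the RefSeq table. The hexamer AGGTCA, which lies within 2 of the other motifs searched, was in the windows of 7 genes (Acadm, Acadvl, Cd36, Cpt1a, Echs1, Plin5 and Ucp3) and in 14% of all windows. CACGTG was found in a window of Slc27a1 alone among the 28 genes, against 6.02% of all windows. TTANGTAA was likewise found in a window of Slc27a1 alone, against 2.06% of all windows. The repeat AGGTCANAGGTCA, the PPAR type of element, was in no window of these genes and in 0.0335% of all. The ERR type of element TCAAGGTCA was in none of theirs and in 0.387% of all. These are letter matches in short windows. The RefSeq starts of Hadha and Hadhb, the 2 subunits of the trifunctional protein, lie 273 bases apart on opposite strands of chromosome 5. Their windows share 228 bases. GENCODE, used for the other coordinates here, starts Hadha at 30155162 and Hadhb at 30155248, so most of the Hadha window lies inside its Hadha gene. The Slc27a1 and Cpt1a windows also lie inside their GENCODE genes, which start at 71568882 and 3322334. The Hadha window, on the minus strand at chr5:30154981-30155230, is shown because the 2 genes had similar log2 fold changes below. Those changes, -0.27 and -0.25, were also near the median of the 34 genes, -0.215, so their likeness does not set the pair apart. The Hadha window had no match.
Hadha: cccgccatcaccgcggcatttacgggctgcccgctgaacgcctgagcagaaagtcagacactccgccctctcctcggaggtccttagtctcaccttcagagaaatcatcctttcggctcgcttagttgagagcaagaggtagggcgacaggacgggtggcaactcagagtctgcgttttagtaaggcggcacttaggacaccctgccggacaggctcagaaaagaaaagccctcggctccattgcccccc

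Total expected counts, the reads assigned to genes, ran from 15350622 to 19361103 per library. All 8 cardiomyocyte markers were expressed in every library, with a summed level between 40330 and 71210 CPM, which are counts scaled to a common library size. The markers of other tissues were uneven: WT control replicate 2 held thymus RNA (Rag1 at 94.0 CPM), and WT control replicates 2 and 3 held the airway gene Scgb1a1 at 246 and 349 CPM. Scgb1a1 was also at 87.2 CPM in R502W mavacamten replicate 1 and at 11.7 CPM in replicate 4. The fat cell gene Adipoq, which encodes adiponectin, was above 50 CPM in 4 libraries (WT control 2 and 3, R502W control 1 and R502W mavacamten 4) and below 30 CPM in the other 9. Results are also given without these 4 libraries where this changed a call. In such bulk samples, fewer cells of a type and less RNA per cell cannot be told apart. Whether every library is a mouse of its own is not in the labels, so the p-values rest on the spread among libraries, which may be technical.

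Levels of the 34 genes covered a wide range. Per kilobase of the principal transcript, the WT control mean was highest for Fabp3, the heart's cytosolic fatty acid binding protein, at 2731 CPM per kb. Lpl followed at 822 and Hadhb at 779 CPM per kb. Acot1 at 8.02 and Angptl4 at 5.13 CPM per kb were the lowest. Fabp3 shares 29.2% of its 50-base stretches with Fabp3-ps1, so its reads may have been split. Together the 34 genes made up between 16930 and 22920 CPM of a library. Replicates varied by a median coefficient of variation over the genes of 12.2% in WT control, 7.83% in R502W control and 12.2% in R502W mavacamten. Angptl4 varied most in each group, by 60%, 99.6% and 78.5%.

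In R502W control hearts 7 of the 34 genes were lower than in WT control and none was higher. The 7 were Slc27a1, Cpt1a, Cpt2, Acaa2, Eci2, Acot1 and Ucp3, and they were spread over uptake, the carnitine shuttle, the spiral and the outlets of the path. Changes were called at a Benjamini-Hochberg adjusted p under 0.05 from edgeR's quasi-likelihood test over all genes. By that rule 12.4% of all tested genes changed, 8.63% higher and 3.75% lower. Of the 34 genes, 27 had a negative log2 fold change, and the median was -0.215, beside -0.009 over all tested genes. With 1 library left out, 27 to 31 were negative. With RLE factors 30 were negative. Many of the genes had their extremes in the same libraries, so these signs are not separate observations. At an unadjusted p under 0.05 there were 17 of the 34 and 4361 of the 15000. Every R502W control library was below every WT control library for 9 genes, namely Slc27a1, Cpt2, Acadl, Echs1, Acaa2, Eci2, Etfa, Acot1 and Ucp3, and above for 1, Acacb. Over all tested genes 5.45% lay below and 12.3% above in this way.

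**Figure D1:**
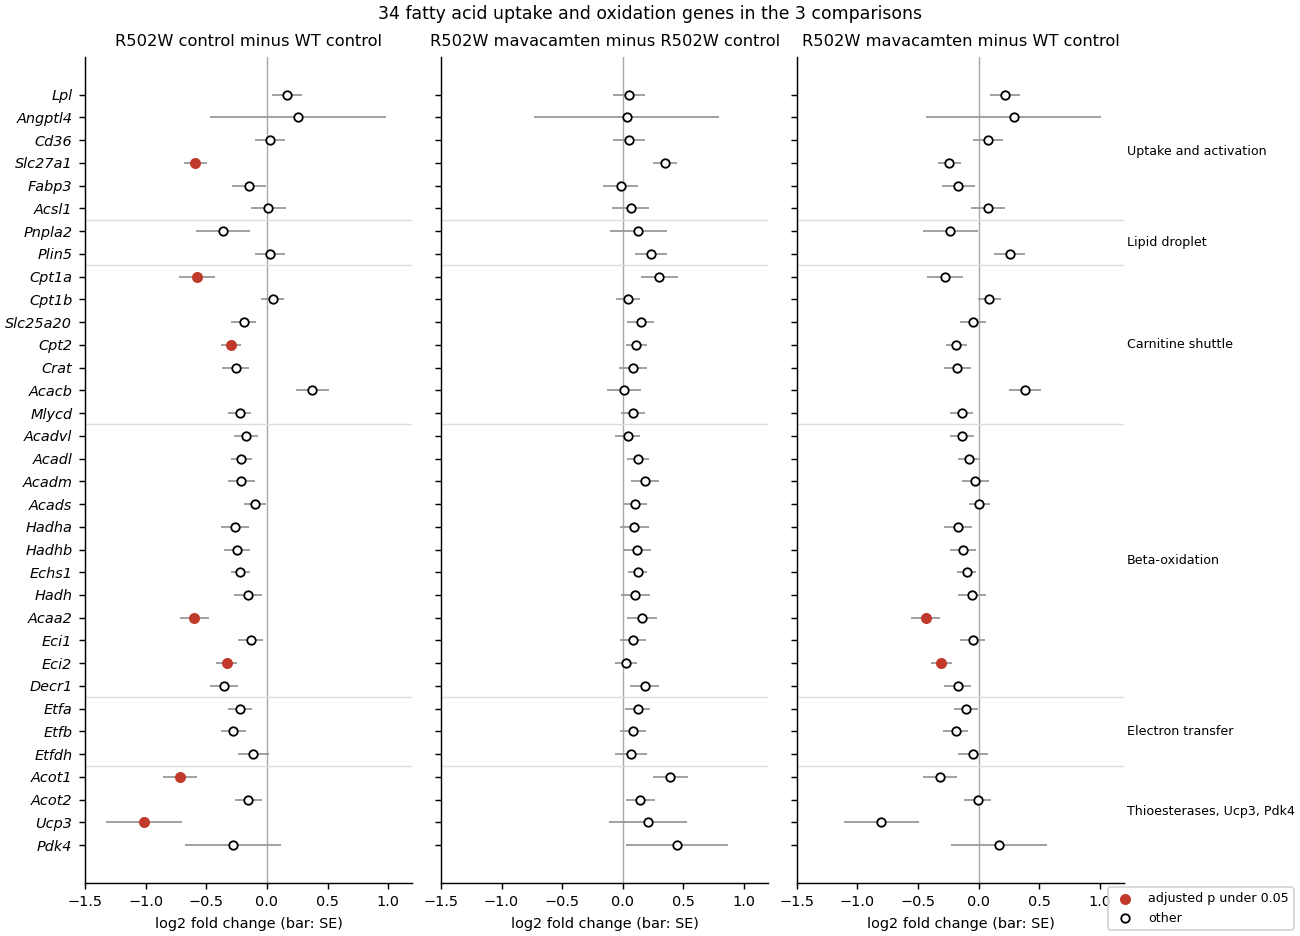
Log2 fold change with its standard error for each of the 34 genes, one panel per comparison, grouped by role; filled points have an adjusted p under 0.05. 7 such points lie left of 0 in the comparison of R502W control with WT control, none in the comparison of mavacamten with R502W control, and a pair in the comparison of mavacamten with WT control.

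Of the 6 genes that bring fatty acids to and into the cell, the transporter Slc27a1 alone was lower in R502W control. Slc27a1 (FATP1, chromosome 8, 71568882 to 71587302) encodes a long-chain fatty acid transport protein with acyl-CoA synthetase activity. The WT control libraries held 198, 239, 223, 212 and 237 CPM, the R502W control libraries 150, 135, 133 and 171, and the mavacamten libraries 178, 170, 190 and 213. All R502W control values lay below all WT control values, and the mavacamten values lay between, overlapping both. The mean was 222 ± 17.2 CPM (SD, n = 5) in WT control, 147 ± 17.4 (n = 4) in R502W control and 188 ± 19.0 (n = 4) in mavacamten. The log2 fold change of R502W control from WT control was -0.59 ± 0.10 (SE), a fold of 0.664, with an adjusted p of 0.00231 from edgeR. This call was kept under every alternative run.

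The other 5 uptake genes did not pass the test in any comparison. Cd36, the main membrane fatty acid receptor, held 1271, 772, 1105, 1087 and 1135 CPM in WT control, 1135, 1024, 1049 and 1164 in R502W control, and 1058, 1217, 1262 and 997 in mavacamten. Fabp3, which carries fatty acids through the cytosol, held 2766, 2085, 1880, 2186 and 2321 CPM in WT control, 1796, 1834, 2330 and 2150 in R502W control, and 1680, 2354, 2191 and 1785 in mavacamten. For both genes the groups overlapped. Their log2 fold changes of R502W control from WT control were 0.03 ± 0.13 and -0.15 ± 0.14. Lpl, the lipase that frees fatty acids from lipoproteins, had 0.16 ± 0.12, and Acsl1, the main long-chain acyl-CoA synthetase of heart, had 0.01 ± 0.14. Angptl4, a secreted inhibitor of Lpl, held 4.11, 26.4, 27.7, 10.3 and 16.4 CPM in WT control. It held 49.97, 9.84, 17.6 and 4.51 CPM in R502W control and 34.3, 10.8, 2.97 and 34.6 in mavacamten. Its spread within a group exceeded any difference between groups, with a log2 fold change of 0.26 ± 0.73, and 0.01 ± 0.72 without the 4 libraries high in Adipoq.

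Both genes of the lipid droplet missed the threshold in all 3 comparisons. Pnpla2 encodes adipose triglyceride lipase, the first enzyme of triglyceride breakdown. Its values were 395, 494, 585, 409 and 423 CPM in WT control, 495, 322, 282 and 336 in R502W control, and 332, 292, 318 and 626 in mavacamten. The highest values of each group were those of the 4 libraries with Adipoq above 50 CPM. Across the 13 libraries Adipoq was 2.49, 99.5, 99.3, 29.1 and 23.4 CPM in WT control, 70.7, 14.0, 0.675 and 11.1 in R502W control, and 23.4, 1.61, 2.41 and 97.8 in mavacamten. All 8 adipocyte markers were measured, and their summed level ran from 338 to 1365 CPM in WT control, 267 to 986 in R502W control and 267 to 1251 in mavacamten. Lep and Retn were at 0 in R502W control replicate 3. The brown fat markers Ucp1, Cidea, Dio2 and Cox7a1 summed to 231.6 to 345.3 CPM, 187 to 353.3 and 152.3 to 402.3 in the same order. Their highest sums were in WT control 3, R502W control 1 and mavacamten 4, all high in Adipoq. WT control 2, also high in Adipoq, had the lowest sum of its group. Ucp1 reached 101.9, 96.28 and 138.5 CPM in the 3 groups. With all libraries the Pnpla2 log2 fold change of R502W control from WT control was -0.36 ± 0.23, with an adjusted p of 0.309 from edgeR. Without the 4 libraries it was -0.41 ± 0.09 and edgeR's adjusted p was 0.021. That omission was chosen after the data were seen. It took out the highest Pnpla2 values of each group, so the smaller SE and this adjusted p follow in part from the choice. The part of fat cell RNA in this gene's level was not tested. Plin5, a droplet coat protein of oxidative tissue, had a log2 fold change of 0.03 ± 0.13.

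**Figure D2:**
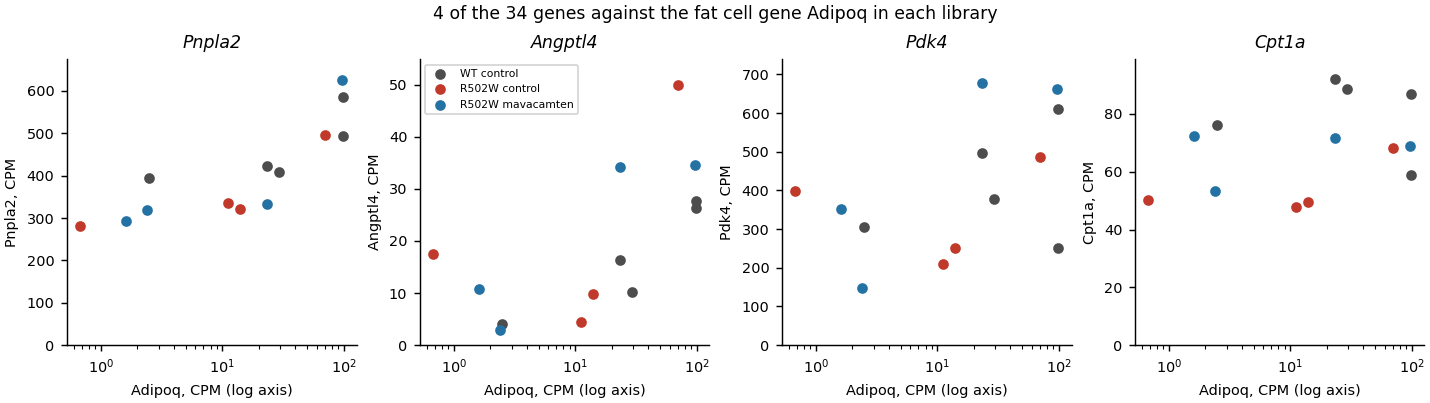
Level of 4 of the genes (vertical axis, CPM) against the fat cell gene Adipoq (horizontal log axis, CPM), one point per library, coloured by group. The 4 libraries to the right, with Adipoq between 70.7 and 99.5 CPM, hold the highest Pnpla2 values, 494 to 626 CPM.

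In the carnitine shuttle, 2 of the 7 genes, Cpt1a and Cpt2, were lower in R502W control and none was higher. Carnitine palmitoyltransferase 1 makes the acylcarnitine that enters mitochondria and is the regulated step of the path. Cpt1b is its muscle isoform and Cpt1a the isoform of liver and many other tissues. Cpt1a values were 76.3, 58.8, 86.9, 88.7 and 92.1 CPM in WT control, 68.4, 49.5, 50.2 and 47.9 in R502W control, and 71.6, 72.3, 53.3 and 68.8 in mavacamten. One R502W control library, replicate 1, lay above the lowest WT control library. The log2 fold change was -0.58 ± 0.15, with an adjusted p of 0.0223 from edgeR. Without the 4 libraries high in Adipoq, of which replicate 1 is one, it was -0.83 ± 0.12 (adjusted p 0.0019 from edgeR). Leaving out R502W control replicate 2, 3 or 4 ended the call, with edgeR's adjusted p between 0.0637 and 0.0755. Cpt1b held 646, 484, 527, 589 and 570 CPM in WT control, 588, 564, 558 and 617 in R502W control, and 571, 578, 688 and 555 in mavacamten. Those groups overlapped, and the log2 fold change was 0.05 ± 0.10. Reads cannot separate Cpt1b fully from the readthrough gene Gm44502, which shares 93% of its 50-base stretches.

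Cpt2, the inner-membrane transferase that returns the acyl group to coenzyme A, held 228, 182, 191, 203 and 222 CPM in WT control. It held 159, 156, 177 and 177 CPM in R502W control and 164, 187, 190 and 182 in mavacamten. All R502W control libraries lay below the WT control libraries. The log2 fold change was -0.30 ± 0.09, with an adjusted p of 0.0374 from edgeR. The call was lost when any of 7 single libraries was left out (WT control 1, 4 or 5, or any R502W control), with edgeR's adjusted p between 0.055 and 0.114. The other members were not called: the carnitine-acylcarnitine carrier Slc25a20 was at -0.19 ± 0.11 on the log2 scale and the carnitine acetyltransferase Crat at -0.26 ± 0.11. Acacb makes malonyl-CoA, the inhibitor of Cpt1, and Mlycd removes it. Acacb had a log2 fold change of 0.37 ± 0.14, with all R502W control libraries (405 to 499 CPM) above all WT control libraries (255 to 395 CPM) and an adjusted p of 0.0838 from edgeR. Without the 4 libraries high in Adipoq the Acacb estimate was 0.16 ± 0.10 (edgeR adjusted p 0.406), and with the trend of fold change on gene length removed it was 0.17 ± 0.10 (0.322). Mlycd had -0.23 ± 0.10 and an adjusted p of 0.134 in the same edgeR fit.

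All 12 genes of the beta-oxidation spiral had negative log2 fold changes in R502W control against WT control, from -0.598 to -0.097, and 2 of the 12 were called lower. With the length trend removed Acads was at 0.007. The median was -0.215. The called genes were Acaa2, a thiolase of the step that ends a round, and Eci2, an isomerase that moves double bonds of unsaturated chains into place. Acaa2 values were 982, 754, 803, 858 and 847 CPM in WT control, 578, 515, 556 and 593 in R502W control, and 478, 629, 752 and 647 in mavacamten. No R502W library of either kind reached the lowest WT control value. The mean was 849 ± 84.9 CPM (SD, n = 5) in WT control and 560 ± 34.03 (n = 4) in R502W control, with a log2 fold change of -0.60 ± 0.12 and an adjusted p of 0.00685 from edgeR. Eci2 held 136, 121, 115, 128 and 108 CPM in WT control, 96.4, 88.2, 97.5 and 104.0 in R502W control, and 90.3, 98.98, 109 and 95 in mavacamten. R502W control again lay wholly below WT control, with a log2 fold change of -0.33 ± 0.09 and an adjusted p of 0.0223 from edgeR. Leaving out R502W control replicate 1, 2 or 3 ended the Eci2 call, with edgeR's adjusted p between 0.0571 and 0.0625. Eci2 shares 7.19% of its 50-base stretches with Eci3.

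The other 10 spiral genes did not pass the test. The acyl-CoA dehydrogenases take the first step, each for a range of chain lengths. Their log2 fold changes in R502W control were -0.17 ± 0.10 for the very long-chain enzyme Acadvl, -0.21 ± 0.09 for Acadl, -0.21 ± 0.11 for the medium-chain enzyme Acadm and -0.10 ± 0.09 for the short-chain enzyme Acads. On the other strand Dvl2 overlaps 42.9% of the exonic length of Acadvl, and the strand setting of the counting is not given in the sources used here. Acadm held 1050, 746, 809, 920 and 893 CPM in WT control, 766, 724, 750 and 816 in R502W control, and 740, 922, 1004 and 804 in mavacamten. Its groups overlapped. Hadha, the trifunctional subunit that hydrates and oxidises long chains, held 1595, 1222, 1176, 1371 and 1364 CPM in WT control. It held 1103, 1066, 1110 and 1198 CPM in R502W control and 1010, 1214, 1445 and 1113 in mavacamten. Only R502W control replicate 4 overlapped the WT control range. The log2 fold changes were -0.27 ± 0.12 for Hadha and -0.25 ± 0.11 for Hadhb, the thiolase subunit of the same complex.

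Echs1, the short-chain hydratase, had a log2 fold change of -0.22 ± 0.08, with every R502W control library (224 to 245 CPM) below every WT control library (252 to 299 CPM). Its adjusted p was 0.0743 from edgeR. Hadh, the dehydrogenase for shorter chains, had -0.16 ± 0.11, and the isomerase Eci1 -0.14 ± 0.10. Decr1, the reductase for chains with several double bonds, had -0.35 ± 0.11 with an adjusted p of 0.0556 from edgeR, and -0.48 ± 0.13 with 0.0463 without the 4 libraries high in Adipoq. None of the 3 electron transfer genes was called. Etfa and Etfb, the subunits of electron transfer flavoprotein, had log2 fold changes of -0.22 ± 0.10 and -0.28 ± 0.10, and Etfdh, the dehydrogenase that hands the electrons to ubiquinone, had -0.11 ± 0.13. Etfb shares 67.3% of its 50-base stretches with the readthrough gene Gm45233, and Hadhb shares 62.4% with other transcripts, so their counts could be split between copies.

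**Figure D3:**
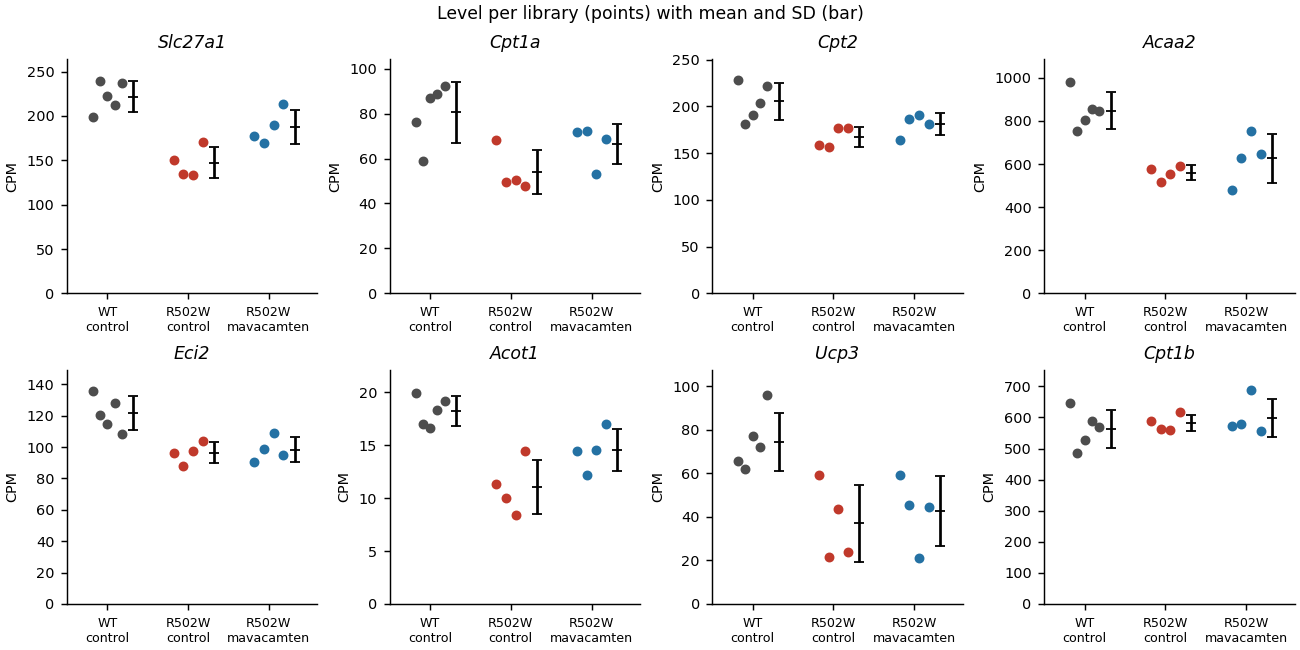
CPM in each library (points) with the mean and SD (bar) of the 3 groups, for the 7 genes called in R502W control against WT control and for Cpt1b. For Slc27a1 and Acaa2 every R502W control point lies below every WT control point, at 133 to 171 against 198 to 239 CPM and at 515 to 593 against 754 to 982 CPM.

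Of the 4 genes at the outlets of the path, Acot1 and Ucp3 were lower in R502W control and none was higher. Acot1 is a cytosolic thioesterase that splits long-chain acyl-CoA back to the free acid. It held 19.9, 17.0, 16.6, 18.3 and 19.2 CPM in WT control, 11.4, 10.1, 8.44 and 14.5 in R502W control, and 14.5, 12.2, 14.6 and 17.0 in mavacamten. The log2 fold change was -0.72 ± 0.14, a fold of 0.609, with an adjusted p of 0.00655 from edgeR. This call was kept under every alternative run. Acot2, its mitochondrial counterpart, was not called, at -0.15 ± 0.11. The 2 transcripts are 94.3% identical over 1330 aligned bases, and 33.6% of the 50-base stretches of Acot1 recur in other genes, so reads may have been split between them.

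Ucp3 encodes a mitochondrial carrier that follows fatty acid supply in muscle. Its values were 65.8, 61.9, 77.3, 71.9 and 95.8 CPM in WT control, 59.3, 21.5, 43.4 and 23.8 in R502W control, and 59.4, 45.4, 21.0 and 44.7 in mavacamten. All 8 R502W values lay below the lowest WT control value, and they spread over a wider fold than the WT control values. The log2 fold change of R502W control was -1.01 ± 0.31, a fold of 0.496, with an adjusted p of 0.049 from edgeR. The call was lost when any of 8 single libraries was left out (WT control 1, 3, 4 or 5, R502W control 2, 3 or 4, or mavacamten 2), with edgeR's adjusted p between 0.0574 and 0.126. Pdk4, the kinase that turns off pyruvate dehydrogenase and so spares glucose, held 307, 252, 610, 378 and 498 CPM in WT control. It held 488, 251, 399 and 211 CPM in R502W control and 678, 351, 147 and 661 in mavacamten. Its groups overlapped throughout, with a log2 fold change of -0.28 ± 0.40.

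For 2 pairs of related enzymes, chosen after their values were seen, the ratio within the pair is given as a description, with no test. In each pair the denominator, Cpt1a or Acot1, was called lower in R502W control and the numerator was not. The ratios therefore largely restate those calls. The limits on telling Cpt1b from Gm44502 and Acot1 from Acot2 by reads hold here too. In Eci1 and Eci2, too, 1 partner was called, and no ratio is given for them. Per kilobase of principal transcript, Cpt1b over Cpt1a was 12.6, 12.3, 9.05, 9.91 and 9.23 in WT control, 12.8, 17.0, 16.6 and 19.2 in R502W control, and 11.9, 11.9, 19.2 and 12.03 in mavacamten. Every R502W control ratio exceeded every WT control ratio, by a margin of 12.8 to 12.6 at the nearest pair. The means were 16.4 ± 2.65 (SD, n = 4) and 10.6 ± 1.71 (n = 5), and 13.8 ± 3.64 (n = 4) in mavacamten. Acot2 over Acot1 was 3.37, 2.99, 3.06, 2.99 and 3.06 in WT control and 4.21, 4.75, 5.17 and 4.42 in R502W control. These ranges did not overlap, with means of 3.1 ± 0.158 (SD, n = 5) and 4.64 ± 0.418 (n = 4). In mavacamten the Acot2 over Acot1 ratio was 3.97, 4.496, 3.99 and 3.19, with a mean of 3.91 ± 0.54 (SD, n = 4). Those values overlapped both other groups, since the lowest lay within the WT control range and the highest within the R502W control range.

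**Figure D4:**
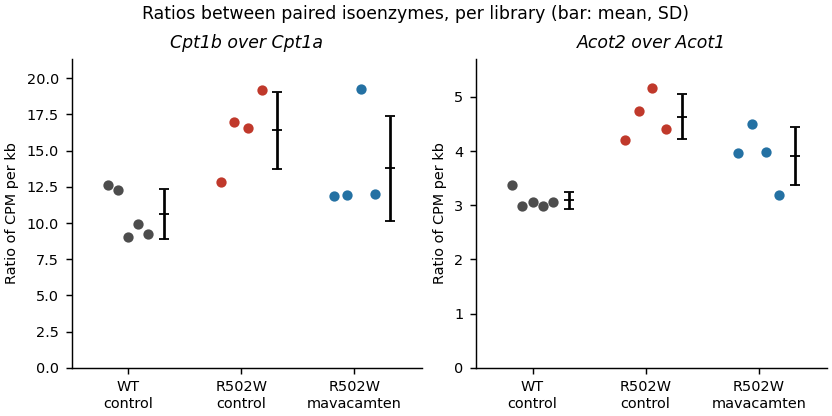
Ratio of Cpt1b to Cpt1a and of Acot2 to Acot1, each per kb of principal transcript, in each library (points) with the mean and SD of the group (bar). R502W control lies above WT control in both panels, at means of 16.4 against 10.6 and of 4.64 against 3.1. The pairs were chosen after the values were seen, and each denominator was a gene called lower in R502W control.

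Mavacamten changed none of the 34 genes past the threshold in R502W hearts, and 33 of the 34 estimates were positive. In edgeR 0 of the 34 passed, and 0% of all 15000 genes. At an unadjusted p under 0.05 there were 2 of the 34 and 525 of the 15000. DESeq2 likewise called 0 of the 34, and 6 genes in all. The median log2 fold change was 0.108 beside 0.004 over all tested genes, of which 50.8% were positive. With 1 library left out, 29 to 33 of the 34 were positive, fewest without mavacamten replicate 3. That library was the highest of its group for 22 of the 34, and R502W control replicate 2 the lowest of its group for 22. The 34 signs are therefore not separate observations. By share of the total count the 34 genes made up 1.78% to 1.9% in R502W control and 1.86% to 1.97% in mavacamten, which overlap. No gene of the 34 had all mavacamten libraries above or all below the R502W control libraries, against 1.29% and 1.58% of all tested genes. This comparison uses the same R502W control libraries as the genotype comparison, so the 2 sets of values are not independent.

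The lowest unadjusted p-values under mavacamten were those of Slc27a1 and Acot1, the genes with the lowest and the second lowest p in the genotype comparison. Acaa2 had nearly the same unadjusted edgeR p as Acot1 between genotypes (0.000197 against 0.000184), but 0.218 under mavacamten. Both comparisons use the same R502W control libraries, so a gene with low values there tends to be lower in the first and higher in the second. For Slc27a1 the log2 fold change from R502W control was 0.35 ± 0.10, with a 95% interval of 0.13 to 0.57, an unadjusted p of 0.00408 and an adjusted p of 1 in edgeR. For Acot1 it was 0.39 ± 0.15, with an interval of 0.07 to 0.71, an unadjusted p of 0.0192 and an adjusted p of 1 in edgeR. The other called genes had log2 fold changes of 0.30 ± 0.15 for Cpt1a, 0.11 ± 0.09 for Cpt2, 0.16 ± 0.12 for Acaa2, 0.03 ± 0.09 for Eci2 and 0.21 ± 0.32 for Ucp3. For all 15 spiral and electron transfer genes the 95% interval lay within 1.5-fold in either direction, with bounds from -0.22 to 0.44 on the log2 scale. Over the whole list this held for 28 of 34.

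Among the uptake and droplet genes the mavacamten estimates were 0.05 ± 0.13 for Lpl, 0.03 ± 0.76 for Angptl4, 0.05 ± 0.13 for Cd36, -0.02 ± 0.15 for Fabp3 and 0.06 ± 0.15 for Acsl1. Fabp3 was the 1 gene of the 34 with a negative value. Plin5 had 0.23 ± 0.13. Pnpla2 had 0.13 ± 0.24 with all libraries, -0.19 ± 0.18 without mavacamten replicate 4 and 0.001 ± 0.093 without the 4 libraries high in Adipoq, so that 1 library set its sign. In the carnitine shuttle the values were 0.04 ± 0.10 for Cpt1b, 0.15 ± 0.11 for Slc25a20, 0.08 ± 0.12 for Crat, 0.01 ± 0.14 for Acacb and 0.09 ± 0.10 for Mlycd. In the spiral they ran from 0.03 for Eci2 to 0.18 for Acadm: 0.04 ± 0.11 for Acadvl, 0.13 ± 0.09 for Acadl, 0.18 ± 0.12 for Acadm and 0.10 ± 0.09 for Acads. Hadha had 0.10 ± 0.12, Hadhb 0.12 ± 0.11, Echs1 0.12 ± 0.08, Hadh 0.10 ± 0.12, Eci1 0.09 ± 0.11 and Decr1 0.18 ± 0.12. The electron transfer genes had 0.12 ± 0.10 (Etfa), 0.09 ± 0.11 (Etfb) and 0.07 ± 0.13 (Etfdh). Acot2 had 0.14 ± 0.12, and Pdk4 had 0.45 ± 0.42, the largest estimate and, after Angptl4, the least precise.

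Set against WT control, mavacamten-treated R502W hearts had 2 of the 34 genes lower, Acaa2 and Eci2, and none higher. Over all tested genes 8.21% changed, 5.93% higher and 2.29% lower. Acaa2 had a log2 fold change of -0.44 ± 0.12 with an adjusted p of 0.0392, and Eci2 -0.31 ± 0.09 with an adjusted p of 0.042, both from edgeR. Both calls lay near the threshold, and leaving out most single libraries, R502W control libraries included, ended them. Acaa2 was lost when any of 10 was left out, with a log2 fold change between -0.488 and -0.36 and edgeR's adjusted p between 0.0549 and 0.087, and kept without WT control 2, R502W control 2 or mavacamten 3. Eci2 was lost without any of 9, with a log2 fold change between -0.328 and -0.281 and edgeR's adjusted p between 0.0544 and 0.0858, and kept without those 3 or WT control 5. Without the 4 libraries high in Adipoq, Acaa2 was at -0.56 (edgeR adjusted p 0.0511) and Eci2 at -0.35 (0.0795), and Pnpla2 alone was called lower (log2 fold change -0.41, edgeR adjusted p 0.031). This omission, chosen after the data were seen, took out the highest Pnpla2 values of each group. All mavacamten libraries lay below all WT control libraries for Acaa2 and Ucp3, against 3.79% of all tested genes, and above for none, against 8.54%. With 1 library left out, 20 to 28 of the 34 were negative, fewest without WT control replicate 1. The median over the 34 was -0.100, with 25 negative, beside 0.002 over all tested genes. Here too the signs are not separate observations. This comparison shares its WT control libraries with the genotype comparison.

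The other 5 genes called in the genotype comparison had log2 fold changes from WT control of -0.24 ± 0.10 for Slc27a1, -0.28 ± 0.15 for Cpt1a, -0.18 ± 0.09 for Cpt2, -0.32 ± 0.14 for Acot1 and -0.80 ± 0.31 for Ucp3. Their edgeR adjusted p-values ran from 0.122 for Ucp3 to 0.25 for Cpt1a. In uptake the values were 0.22 ± 0.12 for Lpl, 0.29 ± 0.73 for Angptl4, 0.08 ± 0.13 for Cd36, -0.17 ± 0.14 for Fabp3 and 0.08 ± 0.14 for Acsl1. Pnpla2 had -0.24 ± 0.23 and Plin5 0.26 ± 0.13. Cpt1b had 0.09 ± 0.10, Slc25a20 -0.05 ± 0.11, Crat -0.18 ± 0.11, Acacb 0.38 ± 0.14 and Mlycd -0.14 ± 0.10. The remaining spiral genes ran from -0.17 to 0.01: -0.13 ± 0.10 for Acadvl, -0.08 ± 0.09 for Acadl, -0.03 ± 0.11 for Acadm, 0.01 ± 0.09 for Acads, -0.17 ± 0.12 for Hadha and -0.13 ± 0.11 for Hadhb. Echs1 had -0.10 ± 0.08, Hadh -0.05 ± 0.11, Eci1 -0.05 ± 0.10 and Decr1 -0.17 ± 0.11. Etfa had -0.10 ± 0.10, Etfb -0.19 ± 0.10, Etfdh -0.05 ± 0.12, Acot2 -0.01 ± 0.11 and Pdk4 0.17 ± 0.40.

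Many of the genes had their highest or lowest value in the same library of a group. On the TMM-scaled CPM used here, WT control replicate 1 was the highest of its group for 25 of the 34 and the highest of all 13 libraries for 21, while WT control replicate 2 was the lowest of its group for 19. In R502W control, replicate 4 was highest for 23 and replicate 2 lowest for 22. In mavacamten, replicate 3 was highest for 22 and replicate 1 lowest for 21. These ranks move with the scaling. On CPM of the total count, with no TMM factor, WT control replicate 1 (factor 0.885) was the highest of its group for 8 of the 34, and mavacamten replicate 3 (factor 0.883) for 6. R502W control replicate 4 was highest for 23 on both scales. By share of the total count the 34 genes made up 2.03% in WT control replicate 1, below 2.07% in replicate 4 and 2.09% in replicate 5. The summed level of the 8 cardiomyocyte markers was 40330 to 56050 CPM in WT control, 57380 to 63500 in R502W control and 52090 to 71210 in mavacamten. The list did not move as one, since 4 of its 8 genes had positive and 4 negative log2 fold changes in R502W control against WT control. The long genes Ttn and Ryr2 were called higher, at 0.98 (adjusted p 0.00789 from edgeR) and 0.86 (0.021), and the most abundant, Myh6, was at 0.50 (0.057). Tnni3 was at -0.32, Myl2 at -0.14, Tnnt2 at -0.10 and Mb at -0.003. The 8 endothelial markers summed to 643 to 818 CPM, 915 to 1051 and 702 to 960 in the same order. The part of cell composition in the 34 genes was not tested.

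**Figure D5:**
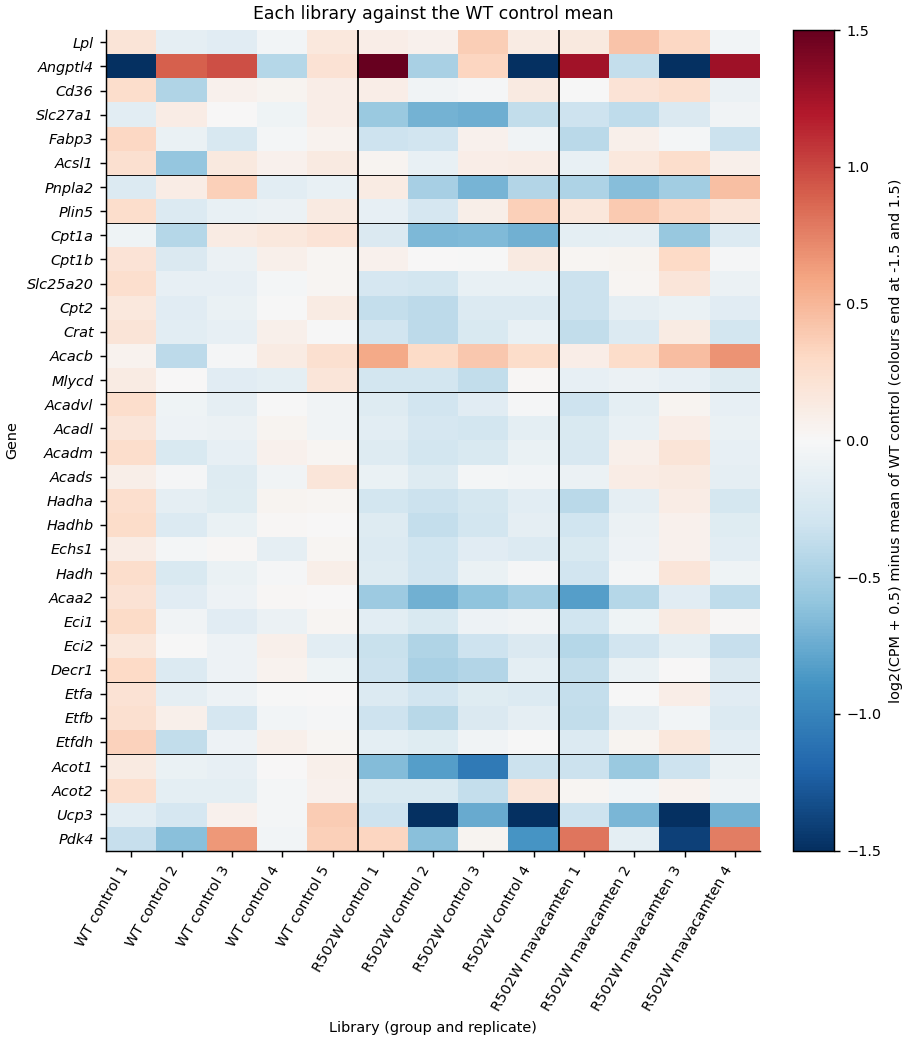
Each of the 34 genes (rows) in each of the 13 libraries (columns), coloured by its log2 difference from the WT control mean. On this TMM-scaled CPM, WT control replicate 1 is the highest library for 21 of the 34 genes, and the R502W control columns are mostly below the WT control mean.

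The lists of neighbouring genes are read beside the 8.63% of all tested genes called higher and 3.75% called lower in R502W control. Of 13 tested genes of uptake, binding and activation outside the 34, Slc27a4, another fatty acid transport protein, was higher in R502W control (log2 fold change 0.28, adjusted p 0.0465 from edgeR) and none was lower. Of 20 other genes of mitochondrial oxidation, 2 were lower and none higher: Nudt7, a coenzyme A hydrolase usually placed in peroxisomes, at -0.55 (adjusted p 0.000662 from edgeR), and Echdc3 at -0.30 (0.0475). Of 15 peroxisomal genes, Pecr, a reductase of fatty acyl chains, was lower at -0.42 (adjusted p 0.0275 from edgeR) and none was higher. Of 15 genes of triglyceride storage and breakdown, 2 were higher and none lower: the droplet coat gene Plin3 at 0.49 (adjusted p 0.0111 from edgeR) and Lpin1, a phosphatidate phosphatase and coactivator, at 0.45 (0.0353). Of 14 genes that set malonyl-CoA and pyruvate dehydrogenase, Prkaa2, the catalytic subunit of AMP-activated kinase in muscle, was higher at 0.59 (adjusted p 0.0496 from edgeR). The calls of Slc27a4 and Prkaa2 lay near the threshold: with RLE factors, without the low-count filter, with the length trend removed or with the 2 groups alone, the uptake and malonyl-CoA lists each had 0 called genes. The medians of these 5 lists lay between -0.197 (peroxisomal) and -0.019 (triglyceride), beside -0.215 for the 34 genes and -0.009 for all tested genes.

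Of 13 transcriptional regulators of the path, 2 were higher in R502W control and none was lower, beside 8.63% higher and 3.75% lower of all tested genes. Ppargc1b, the coactivator PGC-1β, held 12.98, 4.68, 10.9, 11.5 and 15.4 CPM in WT control, 31.9, 23.3, 24.5 and 23.5 in R502W control, and 25.3, 26.9, 28.6 and 24.8 in mavacamten. Every R502W library exceeded every WT control library, with a log2 fold change of 1.218 ± 0.23 and an adjusted p of 0.00534 from edgeR. Esrrb, an estrogen-related receptor, had 0.50 (adjusted p 0.0183 from edgeR). Of the 16 genes of the core clock and its outputs, 15 were called, 4 higher and 11 lower. Dbp, the D-box binding output factor, was at 153 to 204 CPM in WT control, 32.5 to 58.2 in R502W control and 30.7 to 52.7 in mavacamten. Arntl, which encodes BMAL1, was at 2.31 to 6.96 CPM in WT control, 16.1 to 24.5 in R502W control and 16.8 to 24.6 in mavacamten. For both, the R502W libraries stood apart from WT control with and without the drug. With the hour of collection not given, clock phase and genotype cannot be told apart in these values, and their part in the 34 genes was not tested.

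Under mavacamten none of the 7 lists had a called gene against R502W control in edgeR, with 0 to 1 genes of each at an unadjusted p under 0.05, and DESeq2 called none. For treated hearts against WT control the lists are read beside the 5.93% of all tested genes called higher and 2.29% called lower. Outside the clock list, each gene named next was the only call of its list. Gpihbp1, the endothelial anchor of Lpl, was lower (log2 fold change -0.44, adjusted p 0.0387 from edgeR). Nudt7 and Pecr were again lower, at -0.35 (adjusted p 0.0149 from edgeR) and -0.57 (0.0119). Prkaa2 and Ppargc1b were again higher, at 0.65 (adjusted p 0.0425 from edgeR) and 1.25 (0.00923). No gene of the triglyceride list was called there, with 5 at an unadjusted p under 0.05. The clock list again had 4 higher and 11 lower of 16. These comparisons share the WT control libraries, so the recurrence of a gene is not independent.

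Gene length was related to the differences between genotypes. Across 14990 tested genes, Spearman's rho between exonic length and log2 fold change was 0.344 in the genotype comparison, -0.015 in the treatment comparison and 0.364 for mavacamten against WT control, with genes that are not independent replicates. The 34 genes had a median exonic length of 3565.5 bases, against 4288.5 over all tested genes. With the length trend removed, 7 of the 34 were again called lower in R502W control, 4 of them shared: Slc27a1, Cpt1a, Eci2 and Acot1. Acaa2 (log2 fold change -0.46, edgeR adjusted p 0.0508), Cpt2 (-0.20, 0.205) and Ucp3 (-0.96, 0.0727) then missed the threshold. In their place Echs1 (-0.40, edgeR adjusted p 0.0095), Hadha (-0.45, 0.0228) and Hadhb (-0.35, 0.0464) passed it. The trend was fitted on exonic length, with all exons of a gene merged. For Echs1, Hadha and Hadhb that length was 8286, 8730 and 6595 bases, against 1557, 4017 and 2048 for the principal transcript. For Acaa2 it was 1516 bases by either measure, for Cpt2 2391 against 2372 and for Ucp3 3135 against 2448. No trend on principal transcript length was fitted.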

How the data were processed

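The authors deposited 1 table of expected counts by Ensembl gene ID, with 1 column for each of 13 libraries. RSEM made these estimates, per the submitters' processing notes. These notes also name cutadapt, FastQC, DESeq2 and the build GRCm38, with no versions. The strand setting of the counting is not given in the sources used here. Of all values 5.76% were fractional.

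Rounded counts were tested with edgeR 4.0.16 under R 4.3.3 (filterByExpr with a minimum count of 10 and total of 15, TMM factors, quasi-likelihood test, 1 mean per group, all 13 libraries). P-values were adjusted by Benjamini-Hochberg over all 15000 tested genes, with a threshold of 0.05. Levels are CPM on TMM-scaled library sizes. SE is the log2 fold change divided by the square root of F. The biological coefficient of variation was 0.232. Symbols, coordinates and lengths came from GENCODE M21 (GRCm38). The test was checked on simulated counts with 200 changed genes.

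The 34 genes, the lists and the alternatives were chosen with earlier results of these data known. All 34 are named. Values in every library are given for genes called in any comparison and 8 fixed genes. Those of Pnpla2 and Ppargc1b, the 2 enzyme ratios, the library ranks without TMM factors and the ranges of other genes were added after values were seen. Listed genes are named where called, at most 4 per list and direction, and of the clock list Dbp and Arntl. Alternatives were RLE factors, DESeq2 1.42.0, no low-count filter, removal of the length trend, a replicate block, the 2 compared groups alone and each library left out. Added after seeing the data was the omission of the 4 libraries high in Adipoq. Within groups, 22 pairs of libraries differed by a chi-square per degree of freedom of 7.31 to 103, so none was counted as a repeat.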

Additional observations from a re-analysis of the deposited data

Results flagged for a closer look

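In 5 of the 102 combinations of a gene and a group, 1 library stood apart by Dixon's criterion for 4 or 5 values. Chance alone flags about 1 in 20 such groups, and the genes share libraries. Lpl was at 4359 CPM in R502W control replicate 3, where the group's other values were 3517 to 3651 CPM. Acsl1 was at 538.4 CPM in WT control replicate 2, the library with thymus RNA, against 844.2 to 952.1 CPM. Pnpla2 was at 625.7 CPM in mavacamten replicate 4, 1 of the 4 libraries high in Adipoq, against 292.2 to 332 CPM. Cpt1a was at 68.39 CPM in R502W control replicate 1, also high in Adipoq, against 47.9 to 50.24 CPM. Acadvl was at 1043 CPM in WT control replicate 1, the highest library for 21 of the 34 genes on TMM-scaled CPM, against 794.1 to 865.1 CPM.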

How the results depend on the processing

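No value of the 34 genes that was called under any setting reversed its sign. In R502W control against WT control, the count of 7 became 8 with RLE factors, 11 with DESeq2 (adding Acadl, Decr1, Echs1 and Etfb), 6 without the low-count filter, 6 with the 2 groups alone, 7 without the length trend, 9 without the 4 libraries high in Adipoq (adding Decr1 and Pnpla2), and 3 to 9 with 1 library left out, lowest without R502W control replicate 2 or 3. Same-numbered samples of different groups were no more alike than others. The median correlation of deviations was -0.103 over 12 same-numbered pairs (1 over 0.1) and 0.018 over 44 other pairs (16 over 0.1, up to 0.462). These values cannot show whether the samples were paired. With the replicate block 3 genes were called in that comparison (Slc27a1, Acaa2 and Acot1). For mavacamten against WT control the count of 2 became 0 without the filter, with the block or with the 2 groups alone, 1 without the length trend, 1 without the 4 libraries, 3 with DESeq2 and 0 to 2 with 1 library left out. Mavacamten against R502W control gave 0 under every setting. With 1 library left out, the medians ran from -0.263 to -0.186, from 0.071 to 0.159 and from -0.165 to -0.068 in the genotype, treatment and treated-to-WT comparisons. The genotype ratio differences ran from 4.83 to 6.97 (Cpt1b over Cpt1a) and from 1.36 to 1.68 (Acot2 over Acot1) with 1 library left out, and were 7 and 1.63 without the 4 libraries.

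Counts of the small lists moved by 1 or 2 genes. In the genotype comparison, RLE factors gave 0 for the malonyl-CoA and uptake lists. DESeq2 gave 2 for malonyl-CoA, 4 for other mitochondrial and 3 for peroxisomal genes. Without the filter, and without the length trend, malonyl-CoA, uptake and peroxisomal lists gave 0, and other mitochondrial and triglyceride lists 1. The replicate block gave 0, 0 and 0 for malonyl-CoA, uptake and peroxisomal genes and 1 for other mitochondrial genes; the 2 groups alone gave 0, 0 and 1 for malonyl-CoA, uptake and other mitochondrial genes. Without the 4 libraries high in Adipoq, malonyl-CoA gave 2, other mitochondrial 1, uptake 3 and peroxisomal 2. With 1 library left out the ranges were 0 to 2 for malonyl-CoA, 1 to 3 for other mitochondrial, 0 to 1 for uptake, 0 to 3 for peroxisomal, 1 to 3 for regulators, 0 to 4 for triglyceride and 14 to 15 for clock genes. Against WT control in treated hearts, malonyl-CoA gave 0 with RLE factors, without the filter, without the length trend, with the block and with the 2 groups alone, and 2 with DESeq2. DESeq2 also gave 2 for other mitochondrial genes, 3 for regulators and 1 for triglyceride genes. Uptake gave 0 without the length trend, with the block and with the 2 groups alone; peroxisomal gave 0 without the length trend, and other mitochondrial 0 with the block. Without the 4 libraries, uptake gave 2, peroxisomal 0, regulators 2 and triglyceride 1. With 1 library left out the ranges were 0 to 1 for malonyl-CoA and uptake, 1 to 1 for other mitochondrial and peroxisomal, 1 to 2 for regulators, 0 to 2 for triglyceride and 13 to 15 for clock genes. The causes of these shifts were not tested.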
